A study of Mus musculus with 4 samples.

Results

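The hairpins of miR-423, miR-28a, miR-22 and miR-345 were chosen by the ratio between their 3p and 5p arms, which was lower in both CKD libraries than in either Sham library for all 4. Both arms of each were listed, giving 8 of the 1152 entries and 4 of the 130 hairpins in which each arm had a mean of at least 1 count per 1000000 reads (CPM). The 8 members were measured in every library and all passed this filter. Since these ratios selected the members, every Sham against CKD value of a member is a description, and no p-value is given for it.

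A microRNA (miRNA) hairpin is cut by Drosha and then Dicer into a short duplex, whose 5p strand comes from the first arm of the hairpin and whose 3p strand from the second. One strand is usually kept in an Argonaute protein, where its seed, bases 2 to 8, pairs with target mRNAs, while the other is degraded more often. Both arms of a hairpin come from the same transcript, and their ratio within a library does not depend on how libraries are scaled. miR-22-3p is a muscle and heart miRNA known from cardiac hypertrophy and from smooth muscle differentiation. miR-423-5p is widely expressed and has been studied as a circulating marker of heart failure. miR-28a-5p and miR-28a-3p are known to act on different target genes, and miR-345-5p has been studied mainly as a growth-restraining miRNA in tumours.

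The study profiled vascular calcification in chronic kidney disease (CKD) from aortas of 12-week wild type C57BL/6 mice, with 2 libraries titled Sham and 2 titled CKD. Each library was made from RNA of 4 pooled samples, and the gel cut took RNA between 18 and 30 nucleotides long. The model protocol has poles of the left kidney removed, the right kidney removed 1 week later, and then 4 weeks of food with 2% phosphate and water with 0.45% NaCl. The labels carry this protocol for the Sham libraries as well and do not describe a separate Sham procedure. Nothing states whether the pools of a group came from separate mice, so spread between libraries may be partly technical.

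The mature sequences are shown because the arm, not the hairpin, is what differed. They were taken from RefSeq (GRCm38.p6) and are written 5′ to 3′ with the seed in capitals.
miR-423-5p: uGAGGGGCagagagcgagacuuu
miR-423-3p: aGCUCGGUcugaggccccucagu
miR-28a-5p: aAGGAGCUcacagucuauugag
miR-28a-3p: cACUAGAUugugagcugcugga
miR-22-5p: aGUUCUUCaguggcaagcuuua
miR-22-3p: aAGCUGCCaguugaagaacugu
miR-345-5p: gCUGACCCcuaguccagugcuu
miR-345-3p: cCUGAACUaggggucuggagac
The 8 arms carry 8 different seeds, so no member shares a seed with its partner arm or with another member.

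The miR-423 hairpin is shown whole, with both arms in capitals, because it is the member in which the more abundant arm changed.
Mir423 hairpin: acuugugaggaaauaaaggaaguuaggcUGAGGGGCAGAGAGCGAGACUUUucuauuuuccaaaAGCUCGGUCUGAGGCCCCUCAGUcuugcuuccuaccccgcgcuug
Counted from the first base of this hairpin of 109 bases, the 5p arm starts at position 29 and the 3p arm at position 65. In GRCm38, Mir423 lies on the minus strand of chromosome 11 from 77078064 to 77078172, in an intron of Nsrp1. Mir28a lies on the plus strand of chromosome 16 from 24827855 to 24827940, in an intron of Lpp. Mir22 lies on the plus strand of chromosome 11 from 75463716 to 75463810, in an exon of its host RNA Mir22hg and also of an annotated transcript of the neighbouring gene Tlcd2. Mir345 lies on the plus strand of chromosome 12 from 108836973 to 108837068, in an intron of Slc25a47. The 4 hairpins thus lie at separate loci in different host genes.

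In all 4 hairpins the arms are equally long, 23 bases in miR-423 and 22 bases in the others. Of the 106 tested hairpins with both mature sequences in RefSeq, 45 (42.5%) have arms of equal length, so the members share this with many others. The G and C share of the 3p arm exceeded that of the 5p arm by 8.70 percentage points in miR-423 and by 4.55 points in miR-28a and miR-22, and was the same in both arms of miR-345. The first 4 bases held as many G and C in the 3p as in the 5p arm of miR-423 (2 each), miR-28a (2 each) and miR-345 (3 each), and 2 against 1 in miR-22. The arms of miR-423 formed the most stable of the 4 predicted duplexes, at -28.1 kcal/mol, and those of miR-345 the least stable, at -23.3 kcal/mol, against a median of -22.0 kcal/mol over the 106 hairpins.

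Across those 106 hairpins, sequence differences between the arms moved only weakly with the change in ratio. The CKD minus Sham difference in log2 ratio had a Pearson r of -0.27 and a Spearman rho of -0.18 with the length of the 3p minus the 5p arm. The corresponding r and rho were -0.08 and -0.09 for the difference in G and C share, and -0.12 and -0.16 for G and C in the first 4 bases. These coefficients are descriptions across hairpins that share the same 4 libraries. Among the 45 hairpins with equal arms the median difference was -0.07, compared with -0.03 in the 18 with a longer 3p arm and 0.13 in the 43 with a longer 5p arm.

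The libraries held between 16658810 and 17532748 recovered reads, so that 1 read was worth between 0.0570 and 0.0600 CPM. miR-143-3p, the dominant smooth muscle miRNA, took 79.8% and 72.5% of reads in Sham and 41.1% and 40.8% in CKD. With each library summing to a fixed total, the median entry was 2.53-fold higher in CKD on the deposited scale. This is a median difference of 1.34 in log2(CPM + 1) over the 479 entries with a mean of at least 1 CPM. Levels are therefore given on the deposited scale and also relative to the shared shift, after trimmed-mean (TMM) scaling. The shift taken out by TMM scaling was larger than that median, at 1.59 in log2. Among markers of other cell types, 15 of 20 lay above both Sham libraries in both CKD libraries on the deposited scale. After TMM scaling 4 did so and 3 lay below both Sham libraries. Of the 479 entries, 91.2% lay above on the deposited scale, and after TMM scaling 28.0% lay above and 31.5% below. No marker was at 0 in any library. Fewer cells of a type and less RNA per cell cannot be told apart in these bulk samples.

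miR-423 showed the largest change of the 4 hairpins, and its more abundant arm differed between the groups. The 3p arm, miR-423-3p, was at 52.2 and 76.6 CPM in Sham against 89.4 and 84.6 CPM in CKD. The 5p arm, miR-423-5p, had 27.2 and 46.8 CPM in Sham against 133 and 162 CPM in CKD. The 3p arm was thus the higher one in both Sham libraries and the lower one in both CKD libraries.

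The 3p to 5p ratio of miR-423 was 1.92 and 1.64 in Sham and 0.672 and 0.522 in CKD. On the log2 scale it averaged 0.82 ± 0.16 (SD, n = 2) in Sham against -0.75 ± 0.26 (SD, n = 2) in CKD, a difference of -1.58 (limma SE 0.21), or 2.99-fold lower. As a share of the hairpin's reads, the 3p arm made up 63.9% ± 2.60 (SD, n = 2) in Sham against 37.2% ± 4.15 (SD, n = 2) in CKD. The Wilson 95% intervals ran from 63.2% to 68.2% and from 60.0% to 64.1% in Sham, and from 38.7% to 41.7% and from 32.9% to 35.8% in CKD. These intervals cover counting error only, because the reads carry no molecular identifiers and are not independent molecules. The groups were separated by 1.28 on the log2 scale, while the Sham libraries differed by 0.23 and the CKD libraries by 0.36.

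A change of the more abundant arm was rare among the hairpins measured, many of which, like miR-22, were far from balance in Sham. Of 130, 3 had the 3p arm ahead in both Sham libraries and behind in both CKD libraries (miR-423, miR-322 and miR-299a), and 2 had the opposite (miR-144 and miR-299b). These 4 hairpins other than miR-423 were named after their values were seen. Their arms were near balance in the Sham libraries, at ratios from 1.07 to 1.28 in miR-299a and miR-322 and from 0.792 to 0.983 in miR-144, except for miR-299b, whose ratio was 0.545 and 0.00519 in Sham and 98.3 and 2.00 in CKD on mean levels of only 2.97 and 4.24 CPM.

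**Figure D1:**
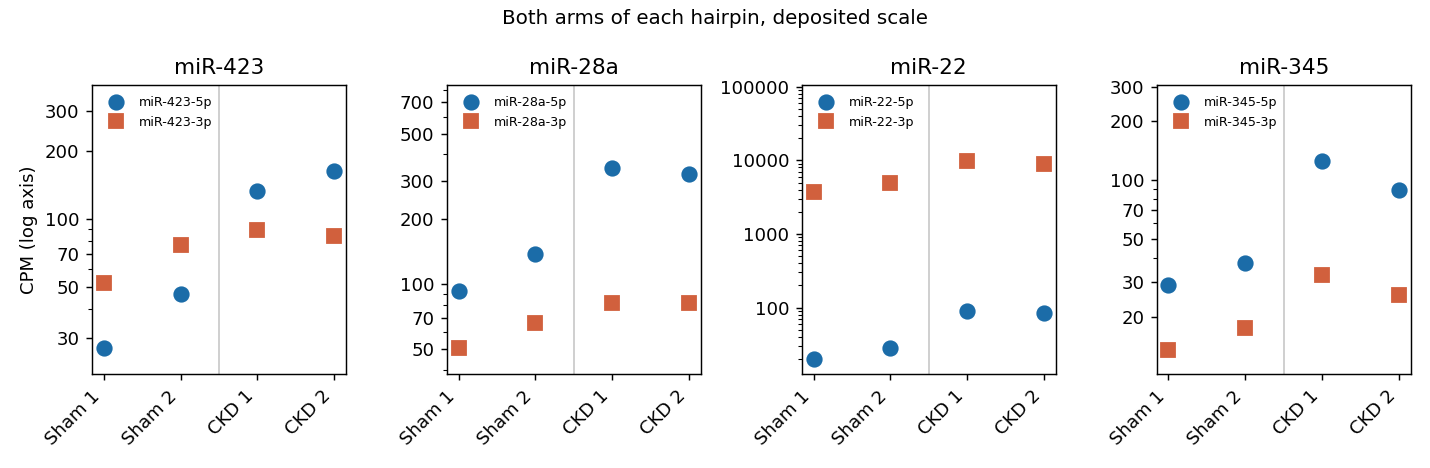
CPM on the deposited scale (log axis) of the 5p arm (circles) and 3p arm (squares) of each hairpin, 1 point per library, Sham to the left and CKD to the right of the grey line. In miR-423 the arms change order, from 52.2 and 27.2 CPM for 3p and 5p in Sham 1 to 84.6 and 162 CPM in CKD 2, while in the other hairpins the same arm stays ahead in every library.

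In miR-28a the 5p arm was the more abundant in every library and its lead was wider in CKD. miR-28a-5p had 93.3 and 138 CPM in Sham against 347 and 325 CPM in CKD. miR-28a-3p had 50.4 and 65.8 CPM in Sham against 81.6 and 81.9 CPM in CKD. Both arms were higher in both CKD libraries on the deposited scale, as 91.2% of the 479 entries were, the 5p arm by more.

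The miR-28a ratio was 0.540 and 0.475 in Sham and 0.235 and 0.252 in CKD, a log2 difference of -1.06 (limma SE 0.17), or 2.08-fold lower. The 3p share was 33.6% ± 2.03 (SD, n = 2) in Sham against 19.6% ± 0.787 (SD, n = 2) in CKD, 14.1 percentage points apart. The Sham libraries differed by 0.19 and the CKD libraries by 0.10 on the log2 scale, and the groups were separated by 0.91. The listed entries miR-28b and miR-28c are close relatives whose reads could be shared with miR-28a-5p. With both added to miR-28a-5p the difference was again -1.06.

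miR-345 resembled miR-28a in having a leading 5p arm, at lower levels. miR-345-5p had 28.9 and 37.9 CPM in Sham against 125 and 88.8 CPM in CKD, and miR-345-3p had 13.6 and 17.5 CPM in Sham against 32.8 and 25.7 CPM in CKD. Both arms were higher in both CKD libraries on the deposited scale, as 91.2% of the 479 entries were. The ratio was 0.469 and 0.463 in Sham and 0.262 and 0.289 in CKD, a log2 difference of -0.76 (limma SE 0.17), or 1.69-fold lower. The 3p share was 31.8% ± 0.204 (SD, n = 2) in Sham against 21.6% ± 1.17 (SD, n = 2) in CKD. This is the least deeply counted member, with 745 and 935 reads over both arms in Sham and 2767 and 1908 in CKD. Its Wilson 95% intervals still did not meet, reaching down to 28.7% in Sham 1 and up to 24.4% in CKD 2.

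miR-22 differs from the others in being strongly one-sided toward its 3p arm. miR-22-3p had 3755 and 4857 CPM in Sham against 9719 and 8922 CPM in CKD, and ranked between 15 and 19 among all 1152 entries in the 4 libraries. miR-22-5p, the minor strand, had 20.2 and 28.1 CPM in Sham against 91.0 and 84.6 CPM in CKD.

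The miR-22 ratio was 186 and 173 in Sham and 107 and 105 in CKD, a log2 difference of -0.75 (limma SE 0.16), or 1.68-fold lower. The 3p share nevertheless differed by only 0.378 percentage points, from 99.4% ± 0.0289 (SD, n = 2) in Sham to 99.1% ± 0.00884 (SD, n = 2) in CKD. The ratio rested on 354 and 475 reads of miR-22-5p in Sham and 1595 and 1410 in CKD. The libraries of a group lay 0.11 apart in Sham and 0.02 apart in CKD on the log2 scale.

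**Figure D2:**
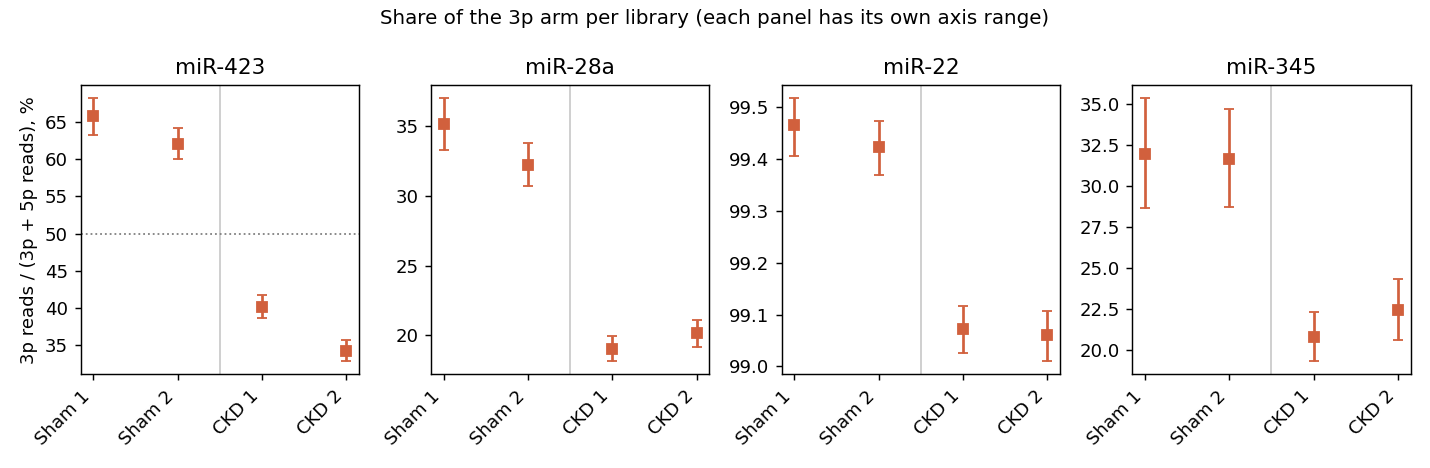
Share of 3p reads among the reads of both arms, in percent, for each library. Bars are Wilson 95% intervals for counting error, each panel has its own axis range that does not start at 0, and the dotted line in the miR-423 panel marks equal arms. In every hairpin both CKD libraries lie below both Sham libraries, by about 26.7 points in miR-423 and 0.378 points in miR-22.

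Among the members the change was larger in miR-423 than in the rest, followed by miR-28a. miR-345 and miR-22 could not be ordered, since their differences of -0.76 and -0.75 lay well within their standard errors. The gap between miR-28a and miR-345 was also below the sum of their standard errors of 0.17 each. No test of these differences was made.

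On the deposited scale the sum of both arms was higher in CKD by a fold near that of the median entry. It went from 101 ± 31.1 to 235 ± 17.0 CPM (SD, n = 2) in miR-423 and from 174 ± 42.8 to 418 ± 15.4 CPM (SD, n = 2) in miR-28a. For miR-345 it went from 49.0 ± 9.11 to 136 ± 30.6 CPM (SD, n = 2), and for miR-22 from 4330 ± 785 to 9408 ± 568 CPM (SD, n = 2). These are 2.32-fold, 2.40-fold, 2.78-fold and 2.17-fold, beside 2.53-fold for the median entry.

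Relative to the shared shift, the 3p arm was lower in all 4 hairpins, both CKD libraries lying below both Sham libraries, as they did for 31.5% of the 479 entries. The log2 difference after TMM scaling was -1.11 (limma SE 0.12) for miR-423-3p and -1.06 (limma SE 0.13) for miR-28a-3p. It was -0.64 (limma SE 0.15) for miR-345-3p and -0.46 (limma SE 0.11) for miR-22-3p. On the deposited scale the same arms stood higher in CKD, by 0.45, 0.50, 0.87 and 1.12, so their direction depends on the scaling.

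The 5p arms stayed closer to the shift. miR-28a-5p lay at -0.02 (limma SE 0.11) and miR-345-5p at 0.08 (limma SE 0.18) after TMM scaling, both with overlapping groups. miR-22-5p lay at 0.29 (limma SE 0.12) and miR-423-5p at 0.45 (limma SE 0.19), and both CKD libraries exceeded both Sham libraries for these 2 arms, as they did for 28.0% of entries. After scaling, miR-28a-5p stood at 195 and 199 in Sham and 192 and 196 in CKD, nearly level, while miR-28a-3p went from 105 and 94.5 to 45.1 and 49.4. In miR-423 both arms moved apart, the 3p arm from 109 and 110 to 49.4 and 51.0 and the 5p arm from 56.8 and 67.2 to 73.6 and 97.6.

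**Figure D3:**
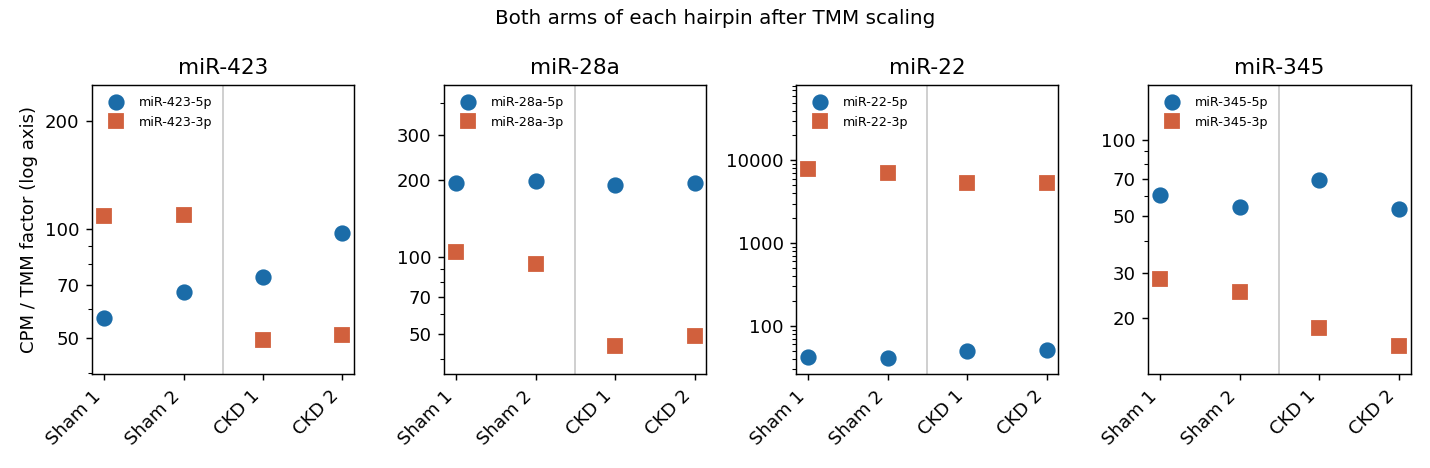
The same arms after division of the CPM by each library's TMM factor (log axis), circles for 5p and squares for 3p, 1 point per library. The 3p arms of all 4 hairpins are lower in both CKD libraries, while miR-28a-5p stays between 192 and 199.

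The rank of each arm within its own library, which needs no scaling between libraries, moved likewise. miR-423-3p went from ranks 99 and 102 of 1152 in Sham to 139 and 134 in CKD, and miR-28a-3p from 102 and 110 to 145 and 137. miR-345-3p went from 168 and 180 to 195 and 214, and miR-22-3p from 15 and 15 to 18 and 19. The 5p arms stayed near their places or gained some, with miR-28a-5p at 78 and 80 in Sham and 80 and 79 in CKD, and miR-22-5p at 149 and 153 and then 137 and 134.

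All 8 arms lay above both Sham libraries in each CKD library on the deposited scale, which held for 91.2% of the 479 tested entries. By limma with Benjamini-Hochberg adjustment 6 of the 8 passed as higher, where 82.9% of entries did, and miR-423-3p and miR-28a-3p did not pass. Relative to the shift, 2 of the 8 passed, miR-423-3p and miR-28a-3p, both lower, where 5.85% of entries passed as lower and 1.88% as higher. Neither arm passed by limma or edgeR when any 1 library was left out. Without CKD 1 or without CKD 2 both tools called 0 entries lower, against 28 by limma with all 4 libraries, while 59 and 67 were lower at an unadjusted p under 0.05 by limma. These counts come from the contrast that chose the members and are given without reading more into them.

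Over the 130 hairpins, arm ratios lay below and above their Sham values about equally often. The median log2 difference was -0.01, with 68 hairpins below 0 and 62 above, and quartiles of -0.51 and 0.34. Both CKD ratios lay below both Sham ratios in 39 hairpins (30.0%), the 4 members among them, and above in another 39 (30.0%). limma called 16 hairpins lower (12.3%) and 4 higher (3.08%), and the 4 members were among the 16. Over the 55 hairpins with both arms at a mean of at least 10 CPM the split was 12 lower and 10 higher. edgeR's quasi-likelihood test of the arm by group term on the recovered reads called 20 lower (15.4%) and 10 higher (7.69%), again with the 4 members. Ordered from the largest decrease, miR-423 stood at place 5, miR-28a at 10, miR-345 at 22 and miR-22 at 23 of 130. Among the 55 hairpins with at least 10 CPM in each arm, they stood at places 2, 5, 9 and 10 in the same order. The members were thus near the top there but were not the hairpins with the largest decreases in either set.

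**Figure D4:**
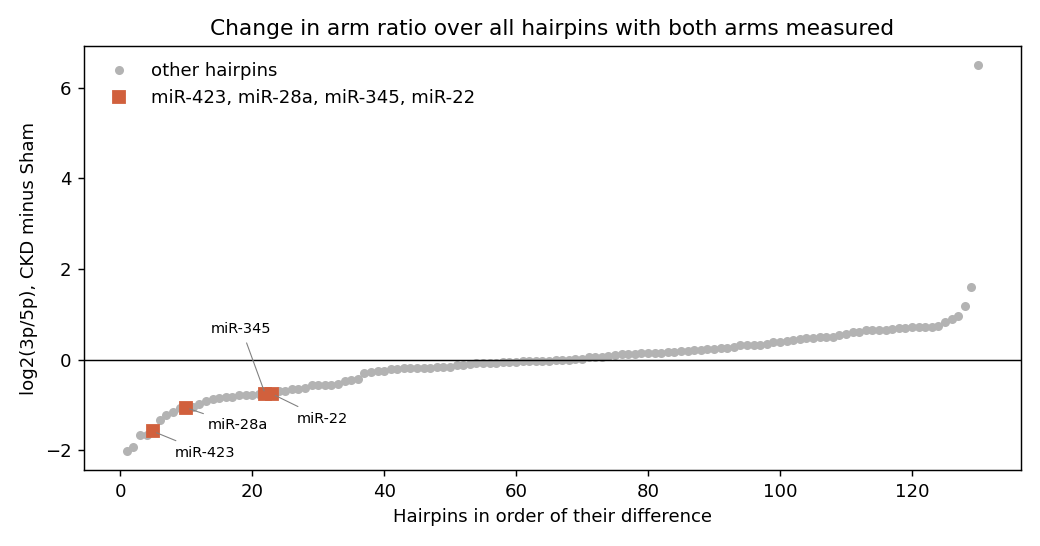
CKD minus Sham difference in log2(3p/5p) for the 130 hairpins, ordered from lowest to highest, 1 point per hairpin, with the 4 members as squares. The members lie at places 5, 10, 22 and 23, and the points fall on both sides of 0, 68 below and 62 above.

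The combination of a lower 3p arm and a 5p arm above the shift was found in 22 of the 130 hairpins (16.9%), including miR-423, miR-22 and miR-345, and its mirror image in 21. The median arm lay near the shift on both sides, at 0.02 for 5p and -0.01 for 3p arms. The 3p arm was below the shift in 65 hairpins and the 5p arm in 64.

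**Figure D5:**
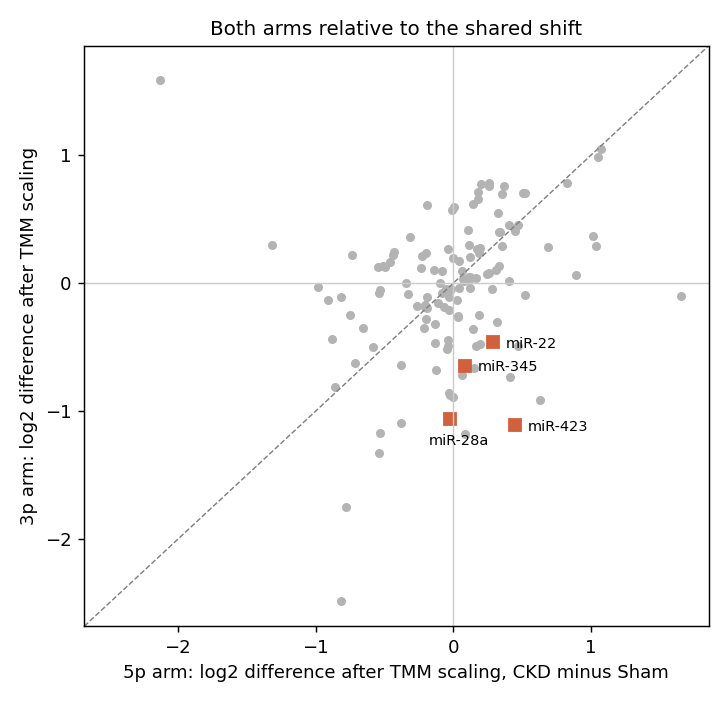
Log2 difference between CKD and Sham after TMM scaling for the 5p arm (x axis) and the 3p arm (y axis) of the 130 hairpins, with the members as squares and equal change on the dashed line. All 4 members lie below the dashed line, with 3p values from -1.11 to -0.46 and 5p values from -0.02 to 0.45.

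The hairpins whose ratios followed the members most closely were sought among 51 others with at least 10 CPM in each arm, by the root mean square difference of the centred log2 ratios over the 4 libraries. miR-140, a hairpin of cartilage and smooth muscle, was nearest to miR-22, at 0.03, and second nearest to miR-28a and miR-345. Its ratio was 10.4 and 9.24 in Sham and 5.77 and 5.62 in CKD, a log2 difference of -0.78. miR-322 was nearest to miR-345 (0.08) and second to miR-22 (0.13), and its more abundant arm also changed, from ratios of 1.15 and 1.13 to 0.628 and 0.789. For miR-28a the nearest was let-7i (0.11), whose 3p arm is a minor strand with a ratio under 0.01. miR-423 had no close match, the nearest being miR-143 at 0.26, with a log2 ratio difference of -1.67, and let-7i at 0.27.

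miR-28a has relatives, which allow its arms to be set beside those of the same family. Among the 900 entries with a RefSeq mature sequence, miR-708-5p is the one other entry that shares a seed with any of the 8 arms.
miR-28a-5p: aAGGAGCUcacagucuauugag
miR-708-5p: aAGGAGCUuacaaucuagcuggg
miR-708-5p had 5.19 and 9.78 CPM in Sham against 64.5 and 32.9 CPM in CKD, at 1.05 relative to the shift, where miR-28a-5p lay at -0.02. Its hairpin did not show a lower ratio in CKD, at 0.110 and 0.164 in Sham and 0.157 and 0.166 in CKD. In miR-151, a further relative, the ratio was 0.263 and 0.242 in Sham and 0.224 and 0.217 in CKD, a log2 difference of -0.20. Of the 5 family hairpins listed, 3 had both arms to test, and miR-28a was the single one that limma called, where 12.3% of all hairpins were called lower.

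The list of broadly expressed hairpins lay as often below 0 as above it. Of 28 listed, 24 could be tested, 12 below 0 and 12 above, with a median of 0.01 and none called by limma in either direction. At an unadjusted p under 0.05 limma marked 6 of these 24, and edgeR called 2. Among 24 tested of 30 vascular and blood hairpins, 14 lay below 0, 6 were called lower and 1 higher, and the median was -0.44. In that list limma marked 13 at an unadjusted p under 0.05, and edgeR called 10. Over all 130 hairpins the median was -0.01, and limma called 12.3% lower and 3.08% higher. Of these 130, limma marked 46 at an unadjusted p under 0.05, and edgeR called 30.

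On the deposited scale the summed red-cell miRNAs rose over the libraries in the order in which the miR-423 and miR-22 ratios fell. The summed level of the 4 red-cell markers was 219 and 841 CPM in Sham against 1035 and 4804 CPM in CKD, while the miR-423 ratio was 1.92, 1.64, 0.672 and 0.522 and the miR-22 ratio 186, 173, 107 and 105. Of the 4 markers, miR-486a-5p and miR-144-3p rose in that order. miR-451a and miR-144-5p did not, with miR-451a at 574 CPM in Sham 2 and 510 CPM in CKD 1. Sums after TMM scaling were not computed. The ratios of miR-28a and miR-345 did not follow that order within CKD, where both were higher in CKD 2 than in CKD 1. The order was not particular to red cells. The 4 leukocyte markers summed to 75.9 and 219 CPM in Sham against 409 and 446 CPM in CKD, rising in the same order. So did the 2 neural markers, at 31.3 and 36.4 CPM in Sham against 107 and 142 CPM in CKD. The sums of the other cell types did not rise in that order. The part of these cells in the arm ratios was not tested.

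With 2 libraries a group an exact permutation test cannot go below a two-sided p of 0.333, and limma reaches smaller values by borrowing variance across hairpins. The member calls by limma depended on single libraries. Without Sham 1 or without Sham 2, which leaves a single Sham library, limma lost its calls over all hairpins, those of the members included. As the members were chosen on this contrast, their calls lend it no support. Without CKD 1 or without CKD 2 miR-423 and miR-28a passed and miR-22 and miR-345 did not. The sizes of the differences changed little, with the values for miR-423 between -1.76 and -1.40 and for miR-28a between -1.15 and -0.96 when any library was left out.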

How the data were processed

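Small RNA was sequenced from 2 Sham and 2 CKD libraries of pooled mouse aorta RNA. Per the submitters' processing notes, the authors used Bowtie (version not stated) and the build GRCm38. The sources used here do not give the read counting, its miRNA annotation or the treatment of reads that match more than 1 miRNA.

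Each library's deposited values sum to about 1000000, so their unit was taken to be CPM. In 3 deposited files of another layout (unit other) the names stand above the values, and these were paired by order. Reads were recovered from the step of 1 read, which divided 100% of the non-zero values to within 0.005 CPM in every library.

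The design named counts and CPM, and CPM was found. Arms were paired by name, 327 hairpins in all. limma (3.58.1) was fitted to log2 of (3p + 0.1)/(5p + 0.1) for the 130 hairpins with a mean of at least 1 CPM in each arm, and, with a trend, to log2(CPM + 1) for 479 entries before and after TMM scaling (edgeR 4.0.16), with an adjusted p threshold of 0.05. TMM factors were 0.479 and 0.696 in Sham and 1.81 and 1.66 in CKD. edgeR's quasi-likelihood test on recovered reads, DESeq2 (1.42.0), other pseudocounts, filters and scalings, the replicate number as a block and leaving out each library were alternatives (edgeR for single entries without each library was added after seeing the data), and the procedures were tested on simulated data. Sequences came from RefSeq, where 900 of the 1152 entries matched by name, gene annotation from GENCODE M21 (GRCm38), and folds from ViennaRNA 2.7.2. Named entries were the members, their seed and family relatives and the 2 hairpins most like each member, by a written rule, whose hairpins of extreme change are not described further, and hairpins whose more abundant arm changed, named after their values were seen. Members and lists were chosen with earlier results of these data known.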

Additional observations from a re-analysis of the deposited data

How the results depend on the processing

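The 4 member ratios stayed lower in CKD under every alternative run. Leaving out any library gave log2 differences from -1.76 to -1.40 for miR-423, -1.15 to -0.96 for miR-28a, -0.80 to -0.70 for miR-22 and -0.83 to -0.69 for miR-345. The number of hairpins called by limma (20) was less stable: 32 with a pseudocount of 1 CPM, 7 with 0.01 CPM, when miR-22 and miR-345 did not pass, and from 0 to 22 when a library was left out. Without a filter on low values limma called 0 of 327, 59 having an unadjusted p under 0.05 and edgeR calling 30 of the 130 that pass the filter. The replicate numbers are labels with no stated pairing. With the replicate number as a block 5 hairpins were called, miR-423 the one member among them, and 352 and 10 entries were called on the deposited scale and after TMM scaling, against 402 and 37. Deviations of the 2 same-numbered pairs had a correlation of 0.49 across hairpins in log2 ratio and 0.12 across entries after TMM scaling. The first value gives great weight to miR-299b, a hairpin with few reads. Its log2 ratios had the widest spread in both groups, with an SD of 4.10 in Sham and 3.89 in CKD (n = 2 each). The correlation without it was not computed.

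On the deposited scale leaving out a library gave from 143 to 392 called entries, with 143 and 241 without CKD 1 and CKD 2, and a mean of at least 10 CPM gave 241. After TMM scaling it gave from 5 to 10 (6, 10, 8 and 5 without Sham 1, Sham 2, CKD 1 and CKD 2, none of them lower in the last pair), no filter gave 18 and DESeq2 gave 77. Arm levels changed sign with the scaling, the values with TMM, median-of-ratios and upper-quartile scaling being -1.11, -1.08 and -1.20 for miR-423-3p, -1.06, -1.03 and -1.16 for miR-28a-3p, -0.46, -0.43 and -0.56 for miR-22-3p and -0.64, -0.61 and -0.73 for miR-345-3p. miR-28a-5p lay at -0.023 with TMM and -0.12 with upper-quartile scaling, and miR-345-5p at -0.0099 with upper-quartile scaling. The scalings take out different shared shifts by construction. For the other changes the cause was not tested. The least counted member arm had 238 reads in a library; minor arms of other hairpins rested on far fewer.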
